A study of Mus musculus with 120 samples.

Results

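The Notch pathway carries short-range signals between neighbouring cells. A ligand of the Delta or Jagged kind on one cell binds a Notch receptor on the next, the receptor is cleaved, and its inner part enters the nucleus and turns the DNA-binding protein Rbpj from a repressor into an activator of target genes such as those of the Hes and Hey repressors. In mouse embryonic stem (mES) cells the pathway is best known for its part in the choice of lineage once self-renewal ends, and in vertebrates at large for its part in the vasculature, the nervous system and the somites. The genes described here are 10 members of that pathway: the receptors Notch1, Notch2, Notch3 and Notch4, the ligands Dll1, Dll4 and Jag1, and the targets Hes1, Hey1 and Hey2. They were chosen by name, with earlier results of these data known. Every probeset that the array annotation gives to these symbols alone was taken. The genes are 10 of 18194 with a symbol on the Mouse 430_2 array. That array holds 18 probesets for them, and the Mouse 430A_2 array 16, without 1 of the 3 probesets of Notch4 (1436901_at) and 1 of the 3 of Jag1 (1434070_at).

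The arrays came from mES clones of the EB3 line, each carrying the coding sequence of 1 gene of human chromosome 21 or its mouse ortholog at the ROSA26 locus under a Tet-off promoter. For each of 20 genes, 3 separate positive clones were profiled induced, after washing, re-plating and growth without tetracycline, and uninduced, in tetracycline, which makes 120 arrays. Both states were grown with LIF, which keeps mES cells undifferentiated. The transgenes were tagged with FLAG, and those of Zfp295, Dyrk1a and Snf1lk were human. Induction lasted 48 hours for Aire and Pdxk, 39 hours for Hunk, Ripk4 and Sim2, and 24 hours for Bach1, Dscr1, Erg, Ets2, Gabpa, Nrip1, Olig1, Pknox1, RIKEN-1810007M14, Dyrk1a, Snf1lk, Pfkl, Olig2, Zfp295 and Runx1. The Runx1 experiment was run on the Mouse 430A_2 array and the other 19 on the Mouse 430_2 array. No array of cells without a transgene is analysed here, so the removal of tetracycline with its washing and the overexpression cannot be told apart within an experiment.

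The values are log2 intensities, compared only within an experiment and within a probeset, as a change of induced minus uninduced. The clone was kept as a block in limma, and a probeset passed the test where its p, adjusted over all probesets of the array, was under 0.05. For 10 genes that mark ES cells, the lowest percentile in any of the 120 arrays was taken from the best probeset of each. It was 98.2 for Pou5f1 and 93.9 for Nanog, and lowest for Esrrb (89.4), Klf4 (83.2) and Fgf4 (75.1). Of the 20 induced genes, Runx1 alone had a probeset that passed the test upward in its own experiment. The transgenes hold coding sequences only, and probesets in the untranslated 3′ ends of a gene do not measure them. Where these probesets lie in their genes was not checked. The study itself measured the induction of its transgenes by q-PCR. In the Pknox1 experiment all of the 3 Pknox1 probesets were lower in the arrays labelled induced, with a change of −1.21 for the least changed (limma adjusted p = 0.771), which goes against the label. Directions from that experiment rest on the label, and no Notch gene passed the test in it.

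Among the promoters of these genes, 3 are shown: that of Notch4, which had the largest change, and those of Dll1 and Jag1, whose calls came from 3 experiments each, in 1 direction for Dll1 and in both for Jag1. Each line holds the 250 bases before a transcription start of RefSeq, build GRCm38.p6, 5′ to 3′ on the strand of the gene. Capitals mark GGAAG or its reverse complement CTTCC, the core bound by ETS factors such as Erg.
Notch4, chr17:34564045-34564294, plus strand: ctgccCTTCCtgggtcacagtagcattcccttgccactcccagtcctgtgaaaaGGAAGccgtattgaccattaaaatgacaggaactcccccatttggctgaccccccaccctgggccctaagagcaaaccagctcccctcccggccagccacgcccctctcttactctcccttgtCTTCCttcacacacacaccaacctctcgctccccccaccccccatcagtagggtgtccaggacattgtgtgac
Dll1, chr17:15376933-15377182, minus strand: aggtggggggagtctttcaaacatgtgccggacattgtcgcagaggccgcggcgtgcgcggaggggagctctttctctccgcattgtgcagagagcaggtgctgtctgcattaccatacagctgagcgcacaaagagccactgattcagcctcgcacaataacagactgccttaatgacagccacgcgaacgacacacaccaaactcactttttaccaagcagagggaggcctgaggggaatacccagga
Jag1, chr2:137116521-137116770, minus strand: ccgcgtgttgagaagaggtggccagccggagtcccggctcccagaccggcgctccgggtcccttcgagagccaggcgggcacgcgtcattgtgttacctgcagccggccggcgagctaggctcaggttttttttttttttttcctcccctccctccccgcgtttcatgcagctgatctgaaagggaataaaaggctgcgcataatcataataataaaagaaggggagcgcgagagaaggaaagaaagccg

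The Notch4 window held 3 matches to GGAAG on either strand, at 245, 196 and 73 bases before the start, and the Dll1 and Jag1 windows shown held 0. Dll1 has a second start farther downstream, whose window held 1 at 13 bases before it, and those of Dll4 and Notch2 held 2 and 1. The core occurred in 64.1% of 32851 promoter windows of this length. The motif of RUNX factors (TGTGGT, 14% of windows) had no match in any of the 9 windows of 8 of these genes. The motif of Rbpj (TGGGAA, 21.6% of windows) had 1, in the window of Hey2 at 207 bases before its start (chr10:30842784-30843033, minus strand). These motifs do not overlap each other in the windows, were searched on both strands, and are matches of letters only. Hes1 and Hey1 were not matched.

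Over the 20 experiments, 18 of 358 tests of these probesets passed, 11 upward and 7 downward, in 4 experiments: 5 each for Aire, Erg and Runx1 and 3 for Olig2. They belong to 7 of the 10 genes. The background differed between these experiments: 3.93% of all probesets passed for Aire, 12.0% for Erg, 16.2% for Runx1 and 1.76% for Olig2, against 27.8% of the Notch probesets for Aire, 27.8% for Erg, 31.2% for Runx1 and 16.7% for Olig2. By direction, 2.45% of all probesets rose and 1.48% fell for Aire (5 and 0 of the 18 Notch probesets), 5.71% and 6.28% for Erg (3 and 2 of 18), 8.51% and 7.65% for Runx1 (3 and 2 of 16), and 0.825% and 0.938% for Olig2 (0 and 3 of 18). Of the 358 tests, 264 were of probesets above the median level of their experiment. Fitted alone, 2641 of 22550 such probesets rose and 3047 fell in Erg, and 1756 and 1375 of 11345 in Runx1. In Aire 1479 and 923 of 22550 did, and in Olig2 727 and 743. Beside these the Notch shares in Erg and Runx1 stand out less. In bulk RNA, a change in how many cells express a gene and a change in its RNA per cell cannot be told apart. The other 16 experiments gave no call for these genes. In these the share of all probesets that passed was 0.914% for Sim2, 0.264% for Pdxk, 0.135% for Nrip1, 0.0177% for Ripk4, 0.00665% for Hunk and 0.00222% for Bach1, and 0 probesets passed in the other 10. No test in those 16 had an adjusted p below 0.0637, and 46 of their 288 tests (16.0%) had an unadjusted p under 0.05, against 7.43% over all probesets of these experiments. With an ordinary unpaired test none of the 18 calls passed after adjustment. That test is not the Bayesian Cyber-t method by which the study found its changed genes. Over all probesets the unpaired test passed 0 in Aire and 0 in Olig2, while in Erg 185 rose and 228 fell and in Runx1 716 and 727.

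**Figure D1:**
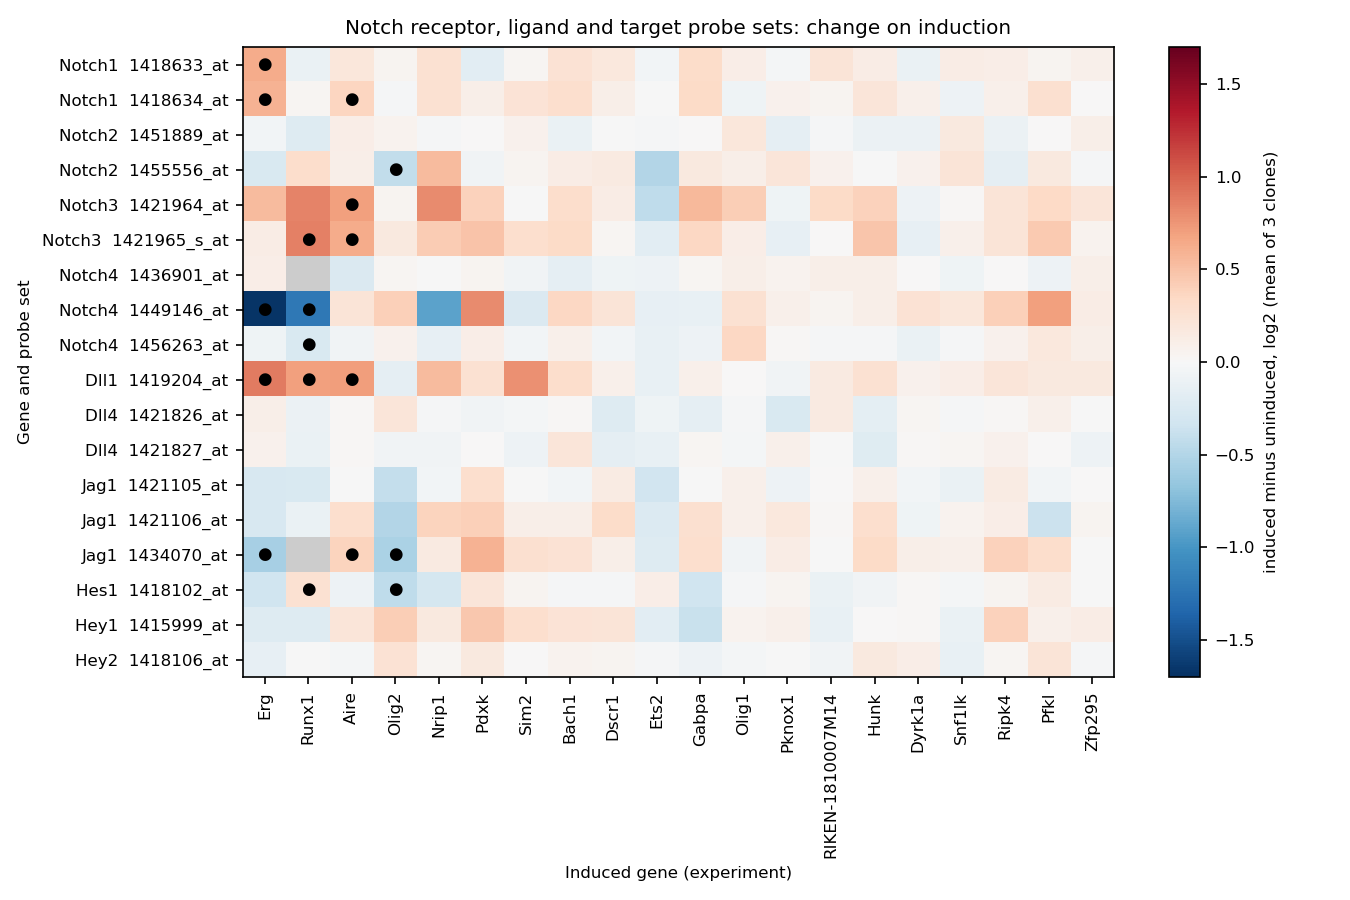
Mean change (induced minus uninduced, log2, 3 clones) of each probeset of the 10 Notch genes (rows) in each of the 20 experiments (columns). Dots mark an adjusted p under 0.05 in limma and grey cells mark probesets that the Mouse 430A_2 array does not hold. The 18 dots lie in the Erg, Runx1, Aire and Olig2 columns, and the darkest blue cells are those of Notch4 1449146_at in Erg (−1.67) and Runx1 (−1.21).

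Notch4, the receptor best known from endothelial cells, fell in the clones that overexpressed either of 2 regulators of blood and vessels, the ETS factor Erg and the runt factor Runx1. Its probeset 1449146_at read 5.43, 6.22 and 5.56 in the induced Erg clones and 7.51, 7.75 and 6.98 in the same clones uninduced. All of the induced arrays lay below all of the uninduced ones. The change was −1.67 ± 0.13 (n = 3 clones), a 3.18-fold lower intensity, with a limma adjusted p of 0.00029. Here and below, the ± after a change is the moderated SE of limma. It borrows spread from all probesets, so it can be smaller or larger than the SE of the 3 clones alone. In the Runx1 experiment the probeset read 4.80, 4.73 and 4.94 in the induced clones and 5.90, 6.44 and 5.75 in the uninduced ones, again without overlap. That is a change of −1.21 ± 0.17, or 2.31-fold lower, with a limma adjusted p of 0.0085. The 3 induced arrays lay below the lower quartile of their array there (the lowest at percentile 21.3), where the size of a fold is less certain. Both calls held without the clone block and without each clone.

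The other probesets of Notch4 were dim. In the Mouse 430_2 experiments 1436901_at lay below the lower quartile of its array in all 6 arrays of most experiments (109 arrays in all) and 1456263_at in 43 arrays, with all 6 of its Runx1 arrays below it too, and neither followed 1449146_at in Erg (changes of 0.11 and −0.07). In Runx1 1456263_at passed with a change of −0.26 ± 0.06 (limma adjusted p = 0.0393), from 4.08, 4.52 and 4.33 in the induced clones and 4.34, 4.80 and 4.57 in the uninduced ones. The groups overlapped, and the call was lost without the block (adjusted p = 0.285), without clone 1 (0.181), clone 2 (0.177) or clone 3 (0.0603). Neither Notch4 probeset of the Runx1 experiment was bright enough to enter the test of probesets above the median level. 

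Outside those experiments Notch4 1449146_at moved both ways without passing. It changed by −0.91 ± 0.36 in the Nrip1 clones (limma adjusted p = 0.479), which read 7.35, 5.21 and 6.81 induced and 7.65, 7.37 and 7.07 uninduced. Clone 2 made up most of that change. In Pdxk, a kinase that makes active vitamin B6, it was 0.81 ± 0.13 higher (limma adjusted p = 0.0637), with 8.28, 7.68 and 7.74 in the induced clones and 7.12, 6.91 and 7.25 in the uninduced ones, which did not overlap. In Olig2 it was 0.40 ± 0.08 higher (limma adjusted p = 0.0585), and in Pfkl the change of 0.70 ± 0.40 came with clones that disagreed in sign.

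**Figure D2:**
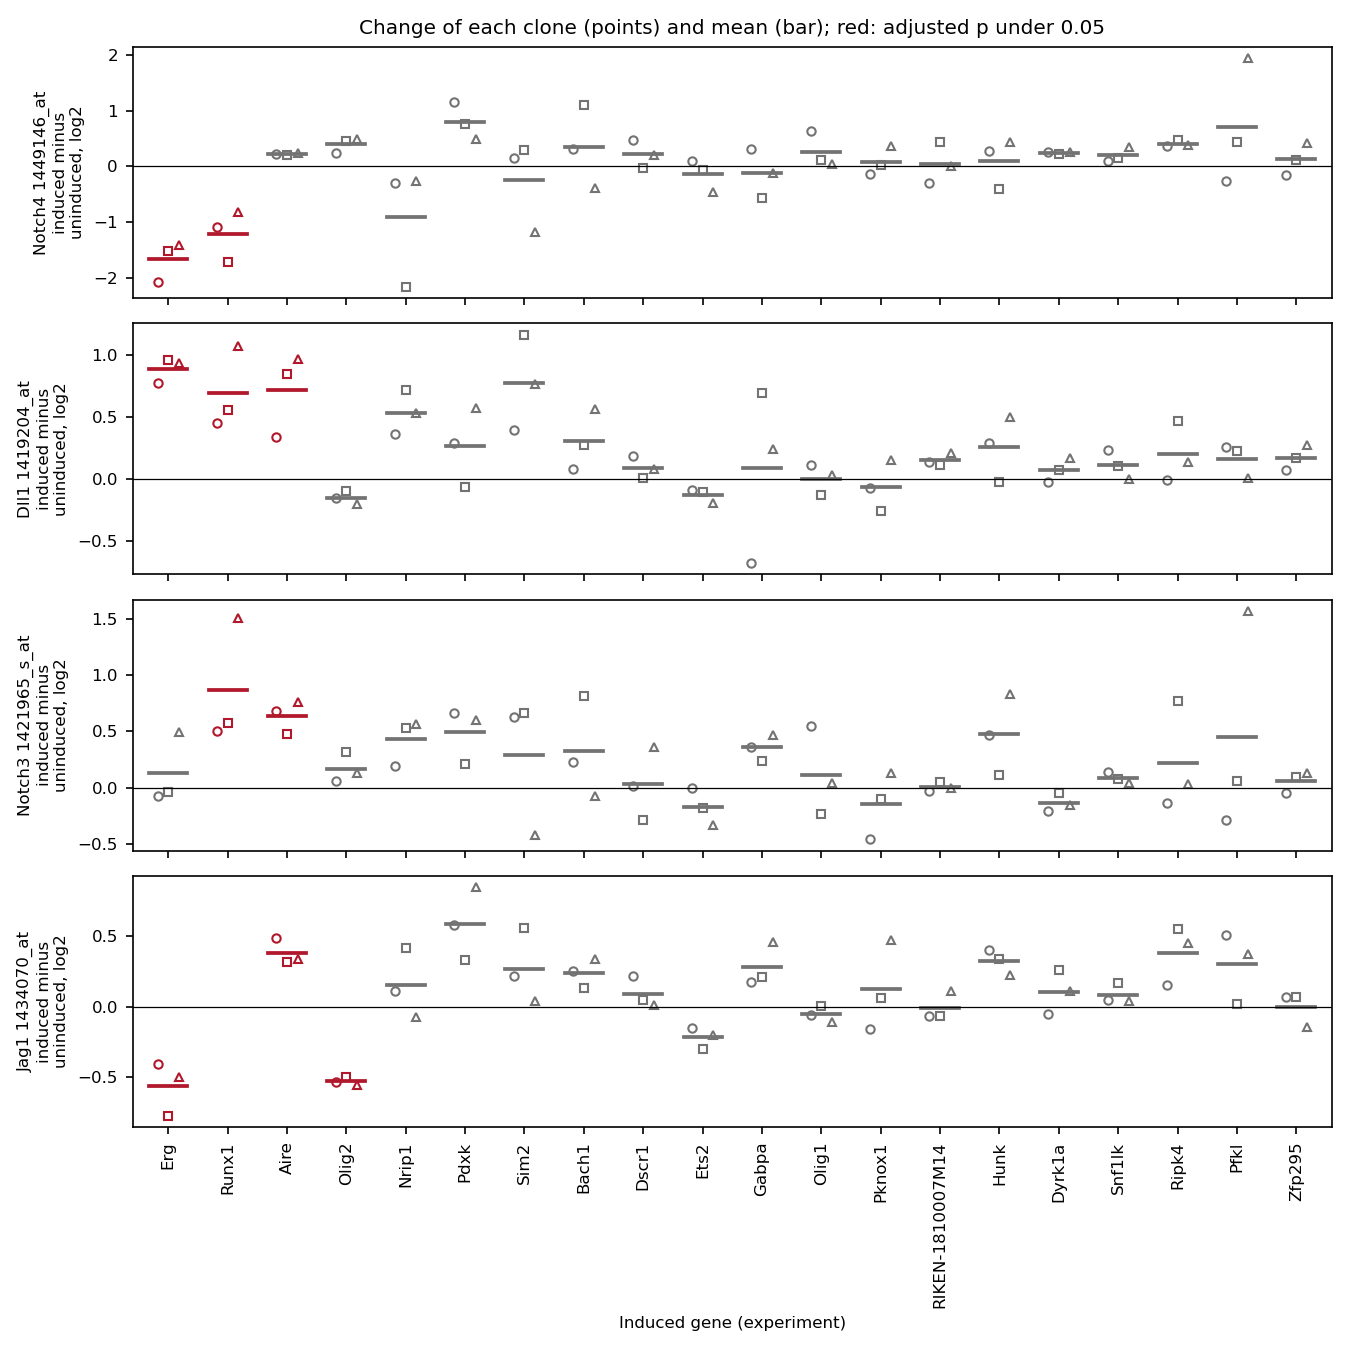
Induced minus uninduced (log2) of each clone (circles, squares and triangles for clones 1, 2 and 3) and the mean (bar) in the 20 experiments, for Notch4, Dll1, Notch3 and Jag1, with an adjusted p under 0.05 in red. All of the 3 clones lie below 0 for Notch4 in Erg and Runx1 and above 0 for Dll1 in Erg, Runx1 and Aire, while clone 2 alone carries most of the Notch4 change in Nrip1.

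Notch1, the receptor most used across embryonic tissues, rose in the Erg clones, where Notch4 fell. Probeset 1418634_at read 8.53, 8.46 and 8.53 in the induced Erg clones and 7.97, 8.02 and 7.78 in the uninduced ones, a change of 0.59 ± 0.09 (1.5-fold, limma adjusted p = 0.0052). Probeset 1418633_at read 7.16, 6.80 and 6.86 induced and 6.34, 6.52 and 6.09 uninduced, a change of 0.62 ± 0.12 (limma adjusted p = 0.0128). Neither pair of groups overlapped. The call of 1418634_at held without each clone, and that of 1418633_at was lost without clone 1 (adjusted p = 0.0519) or clone 3 (0.101). In the Runx1 clones these probesets changed by 0.03 ± 0.11 and −0.11 ± 0.07 (limma adjusted p of 0.877 and 0.337).

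In the Aire clones, which express a regulator of self-antigens in the thymus, Notch1 1418634_at read 8.78, 8.52 and 8.20 induced and 8.38, 8.16 and 7.88 uninduced. The change of 0.36 ± 0.07 (limma adjusted p = 0.032) was alike in the 3 clones although their levels overlapped. It was lost without the block (adjusted p = 0.449), without clone 1 (0.0618), clone 2 (0.0789) or clone 3 (0.163), and after a second quantile normalization (0.0509). Probeset 1418633_at changed by 0.19 ± 0.08 there (limma adjusted p = 0.265).

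Notch3, a receptor of vascular smooth muscle and of neural progenitors, rose in the Aire and Runx1 clones. In Aire, 1421965_s_at read 8.83, 8.51 and 8.52 induced and 8.15, 8.03 and 7.76 uninduced (0.64 ± 0.08, limma adjusted p = 0.0084). Probeset 1421964_at read 6.46, 6.33 and 6.35 induced and 6.09, 5.70 and 5.27 uninduced (0.69 ± 0.12, limma adjusted p = 0.0221). The groups did not overlap for either probeset. Both calls were lost without the block (adjusted p of 0.125 for 1421965_s_at and 0.195 for 1421964_at) and without clone 3 (0.0824 and 0.119).

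In Runx1, Notch3 1421965_s_at read 8.76, 8.53 and 9.60 in the induced clones and 8.25, 7.96 and 8.09 in the uninduced ones, a change of 0.86 ± 0.20 (1.82-fold, limma adjusted p = 0.0423). Clone 3 was the highest of the induced arrays, and without it the change was 0.54 (adjusted p = 0.0193). Without the block it was 0.0589. Probeset 1421964_at read 6.48, 6.29 and 7.81 induced and 6.01, 5.89 and 6.18 uninduced, which is 0.84 ± 0.24 without passing (limma adjusted p = 0.0754). In the Nrip1 clones the same probeset read 6.80, 6.54 and 6.57 induced and 5.93, 5.98 and 5.56 uninduced, without overlap, and also did not pass (0.81 ± 0.11, limma adjusted p = 0.0661). In Erg the Notch3 probesets changed by 0.13 ± 0.12 (1421965_s_at) and 0.53 ± 0.17 (1421964_at), with limma adjusted p of 0.625 and 0.0895.

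Notch2, a receptor of wide expression, gave 1 call. Probeset 1455556_at read 6.90, 6.80 and 7.07 in induced clones of the oligodendrocyte and motor neuron factor Olig2 and 7.34, 7.27 and 7.40 in the uninduced ones. The groups did not overlap, and the change was −0.41 ± 0.07 (limma adjusted p = 0.0364). The call was lost without the block (adjusted p = 0.209), without clone 1 (0.194), clone 2 (0.153) or clone 3 (0.0728). The change of 1455556_at was larger in size in Ets2 (−0.50) and Nrip1 (0.54), in opposite directions, and did not pass in either. The other Notch2 probeset, 1451889_at, changed by 0.06 ± 0.07 in Olig2, and over all 20 experiments its change stayed between −0.23 and 0.19.

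Dll1, a ligand of the somites and of neurogenesis, gave 3 calls, all upward. In Erg, 1419204_at read 6.93, 6.66 and 7.13 in the induced clones and 6.16, 5.71 and 6.19 in the uninduced ones, without overlap (0.89 ± 0.08, 1.85-fold, limma adjusted p = 0.0006). In Runx1 it read 8.13, 7.94 and 8.16 induced and 7.68, 7.39 and 7.10 uninduced, also without overlap (0.69 ± 0.13, 1.61-fold, limma adjusted p = 0.0208). These 2 calls held without the block and without each clone. In Aire it read 7.93, 7.72 and 7.57 induced and 7.59, 6.88 and 6.61 uninduced, where the lowest induced array lay just below the highest uninduced one (0.71 ± 0.12, 1.64-fold, limma adjusted p = 0.0172). That call was lost without the block (adjusted p = 0.279) and without clone 3 (0.135). The Sim2 clones, which express a neural and muscle repressor, read 7.49, 8.09 and 7.81 induced and 7.09, 6.93 and 7.05 uninduced, without overlap, and did not pass (0.77 ± 0.15, limma adjusted p = 0.0778).

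Jag1, the ligand of vessels and of the inner ear, moved in opposite directions. Its probeset 1434070_at fell in Erg (6.99, 7.0 and 7.09 induced, 7.40, 7.78 and 7.59 uninduced), by 0.56 on the log2 scale with a limma adjusted p of 0.0082. It fell in Olig2 as well, with 7.74, 7.56 and 8.04 in the induced clones and 8.28, 8.07 and 8.60 in the uninduced ones (−0.53 ± 0.07, limma adjusted p = 0.0139). In Aire it rose, with 9.36, 8.47 and 8.48 induced and 8.88, 8.16 and 8.14 uninduced (0.38 ± 0.08, limma adjusted p = 0.032), and clone 1 was the brightest in both states. The call in Erg was lost without clone 3 (adjusted p = 0.05, just over the threshold before rounding). That in Olig2 was lost without the block (0.425), without clone 1 (0.109) or without clone 2 (0.0557). That in Aire was lost without the block (0.65), without clone 1 (0.0692) or without clone 3 (0.161).

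The other Jag1 probesets did not pass in any experiment. In Erg 1421105_at and 1421106_at changed by −0.27 ± 0.08 and −0.27 ± 0.09, and in Olig2 by −0.41 ± 0.08 and −0.49 ± 0.13, the same side as 1434070_at and without overlap of the groups. In Aire they changed by −0.01 ± 0.07 and 0.28 ± 0.08. In Pdxk all of the 3 probesets were higher in the induced clones, with 0.59 ± 0.11 for 1434070_at (limma adjusted p = 0.0844). Dll4, the ligand of sprouting endothelium, gave no call: over the 20 experiments its probesets changed by −0.25 to 0.21 (1421826_at) and −0.21 to 0.21 (1421827_at). In the Erg clones, where endothelial genes rose, Dll4 changed by 0.09 ± 0.08 and 0.07 ± 0.08.

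**Figure D3:**
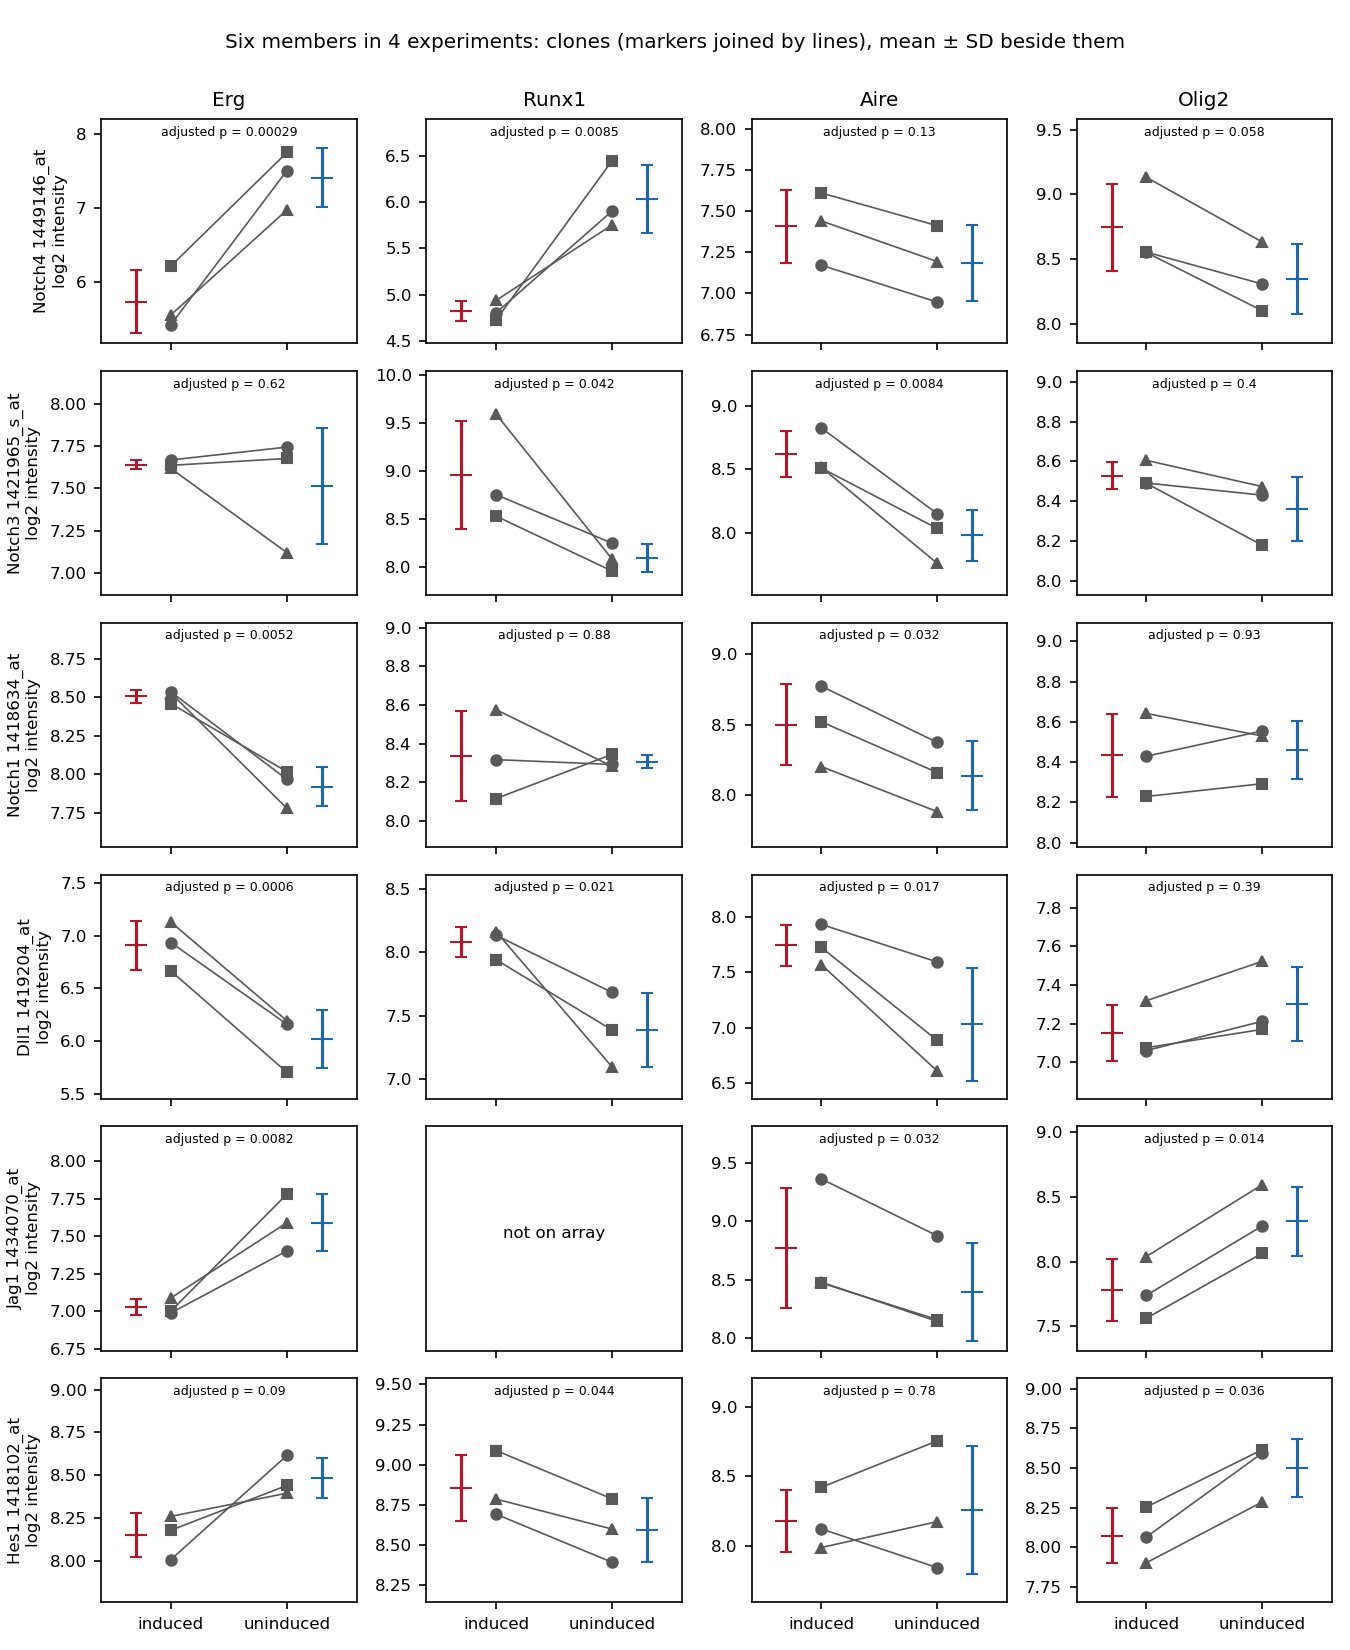
Log2 intensity of 6 probesets (rows) in the induced (left) and uninduced (right) arrays of the Erg, Runx1, Aire and Olig2 experiments (columns). Lines join the 2 arrays of a clone, bars beside them are the mean ± SD over 3 clones, and each panel has its own axis, which does not start at 0. The Notch4 lines run downhill to the induced side in Erg and Runx1, those of Dll1 uphill in Erg, Runx1 and Aire.

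Of the targets, Hes1 alone gave calls, with opposite signs. Hes1, a repressor of differentiation genes, read 8.06, 8.25 and 7.90 in the induced Olig2 clones and 8.59, 8.62 and 8.29 in the uninduced ones, without overlap (−0.43 ± 0.07, limma adjusted p = 0.0361). In Runx1 it read 8.69, 9.09 and 8.79 induced and 8.39, 8.79 and 8.60 uninduced, with overlap (0.26 ± 0.06, limma adjusted p = 0.0445). The Olig2 call was lost without the block (adjusted p = 0.399), without clone 1 (0.199), clone 2 (0.103) or clone 3 (0.0889). The Runx1 call was lost without the block (0.239), without clone 1 (0.214) or clone 2 (0.193), and after a second quantile normalization (0.0803). In Erg, Hes1 changed by −0.33 ± 0.11 (limma adjusted p = 0.0897).

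Hey1 and Hey2, repressors of the heart and of arteries, gave no call in any experiment. The change of Hey1 ran from −0.38 in Gabpa to 0.46 in Pdxk. In the clones of Gabpa, a widely expressed ETS factor, Hey1 read 5.86, 5.60 and 5.63 induced and 6.20, 5.93 and 6.10 uninduced, without overlap, at a limma adjusted p of 0.253. In Olig2 Hey1 was 0.41 ± 0.08 higher, with 6.63, 6.79 and 6.77 in the induced clones and 6.38, 6.24 and 6.33 in the uninduced ones, also without overlap (limma adjusted p = 0.0581). Hey2 lay below the lower quartile of its array in 42 of the Mouse 430_2 arrays and changed by −0.14 to 0.24 over the 20 experiments.

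The experiments were next set against each other on the Mouse 430_2 array, where the change of 1 experiment was compared with the mean change of the other 18 in 1 fit. This fit takes 1 spread for all experiments, so an experiment with uneven clones can gain calls in it. It also has no Runx1. Of the 342 tests of these probesets 17 passed, in 6 experiments, where the share of all probesets that passed was 12.3% for Erg, 9.09% for Gabpa, 3.92% for Nrip1, 2.90% for Pdxk, 1.68% for Olig2 and 9.30% for Sim2. In Erg, Notch4 1449146_at changed by −1.67 against 0.15 on average elsewhere, a difference of −1.82 (limma adjusted p = 2.6e-06). Dll1 (0.89 against 0.20) and both Notch1 probesets (0.62 against 0.10, and 0.59 against 0.13) also differed upward, and Jag1 1434070_at (−0.56 against 0.14) downward. The Notch1 differences had limma adjusted p of 0.162 and 0.146 without clone 1, and 0.195 and 0.063 without clone 3.

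In Olig2 all of the 3 Jag1 probesets differed downward from the other experiments, by 0.39 (1421105_at), 0.59 (1421106_at) and 0.67 (1434070_at) on the log2 scale. The difference of 1434070_at passed without each clone. That of 1421105_at had an adjusted p of 0.0814 without clone 1, 0.158 without clone 2 and 0.428 without clone 3, and 0.0557 against experiments of the same time. That of 1421106_at had 0.071 without clone 2 and, at a difference of −0.35, 0.628 without clone 3. In Pdxk 2 of them differed upward, but only Aire shares its time of 48 hours, and none of its differences passed when the comparison was held to the same time (adjusted p of 0.79 or above). Hey1 differed downward in Gabpa, by −0.50 (limma adjusted p = 0.0006), although no probeset at all passed in the Gabpa experiment alone. Without clone 3 this difference had an adjusted p of 0.0859. Deviations of the paired Gabpa arrays correlated weakly, at 0.05, −0.18 and 0.17. The difference of Notch4 in Nrip1 (−1.02, limma adjusted p = 0.0241) had an adjusted p of 0.783 without clone 2. That of Dll1 in Sim2 was 0.57 (limma adjusted p = 0.0067), with 0.201 without clone 2 and 0.0814 without clone 3.

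The mean change over the 19 experiments on the Mouse 430_2 array, with an experiment as 1 value, was positive for Notch1, Notch3 and Dll1. It was 0.25 ± 0.06 for Notch3 1421964_at and 0.20 ± 0.05 for 1421965_s_at, higher in 15 and 16 of 19 experiments, 0.15 ± 0.04 for Notch1 1418634_at (15 of 19) and 0.23 ± 0.06 for Dll1 (16 of 19). None of these passed: the lowest limma adjusted p over the 18 Notch probesets was 0.0954. Of all 45100 probesets 0.0554% passed. With clones in place of experiments as the values, which counts the 3 clones of a gene as independent, 5 Notch probesets passed, those 4 and Notch1 1418633_at, against 5.40% of all probesets.

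Markers of cell types were counted in the experiments with calls. Of all genes, 9.12% rose and 10.8% fell in Erg, and 11.4% and 9.71% in Runx1. In Aire 4.48% rose and 2.71% fell, and in Olig2 1.56% and 1.54%. In Erg, 6 of 8 endothelial markers rose and none fell, and their summed intensity was 1812 to 1997 in the induced clones and 971 to 1011 in the uninduced ones. Of 10 ES cell markers 6 fell and none rose, with a sum of 32227 to 35546 induced and 41644 to 44926 uninduced. Of 7 neural markers 1 rose and 1 fell in Erg, and 1 of 6 primitive endoderm markers rose. In Runx1, 8 of 10 ES cell markers fell (40214 to 43304 induced, 56317 to 59339 uninduced), while 1 of 8 endothelial markers rose and 3 fell. Of 5 mesoderm markers 1 rose, and their sum was 476 to 588 in the induced Runx1 clones and 256 to 299 in the uninduced ones. Of 7 neural markers 2 rose and 1 fell there. Of 6 fibroblast and 6 primitive endoderm markers 1 each fell there. In Aire 1 of 10 ES cell markers rose, 1 of 7 neural markers rose and 2 fell, 1 of 5 mesoderm markers fell, and 1 of 8 endothelial markers rose and 1 fell. In Olig2 1 of 10 ES cell markers fell, and 1 of 7 neural and 1 of 6 fibroblast markers rose. In Erg 1 of the 8 endothelial markers lay below the lower quartile in every array, and in Runx1 3. Fibroblast markers had a sum of 702 to 1045 in the induced Erg clones and 228 to 378 in the uninduced ones, where 1 of 6 rose. The part of these cell types in the Notch results was not tested.

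Of 54 further genes of the pathway, listed by role, 50 had a probeset of their own on the Mouse 430_2 array. The list was made with earlier results of these data known, so its shares beside those of all genes are descriptions only. In Erg 12 of the 50 had a probeset that rose and 6 one that fell, 24% and 12% of them, against 9.12% and 10.8% of all genes. In Runx1 7 of 47 rose and 6 fell, 14.9% and 12.8% of them, against 11.4% and 9.71%. In Aire 5 of 50 rose and 1 fell, 10% and 2% of them, against 4.48% and 2.71%. Nrip1, Pdxk and Olig2 gave 1 increase each and Sim2 2, where 0.214%, 0.401%, 1.56% and 1.24% of all genes rose and 0.0440%, 0.0495%, 1.54% and 0.484% fell. The median change of their probesets was 0.06 in Erg, −0.05 in Runx1 and 0.03 in Aire, and that of the 10 Notch genes −0.06, −0.10 and 0.15, beside −0.01, −0.03 and −0.01 over all probesets.

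Rbpj, the DNA-binding partner of every Notch receptor, fell in all 3 of these experiments. The change lay between −0.51 and −0.39 over its 3 probesets in Erg, was −0.56 and −0.66 for 2 probesets in Runx1, and lay between −0.43 and −0.33 over 3 in Aire. Nrarp, a target that feeds back on the Notch complex, rose in Erg (1.09 ± 0.08 and 0.51 ± 0.11), in Runx1 (0.56 ± 0.07 and 0.45 ± 0.10) and in Sim2 (0.71 ± 0.10). Among the Fringe enzymes that add sugars to the receptors, Mfng rose in Erg (1.05 ± 0.13) and Runx1 (0.47 ± 0.10), and Rfng fell in both (−0.56 ± 0.08 in Erg, −0.81 ± 0.06 and −0.50 ± 0.07 in Runx1). Lfng rose in Olig2 by 0.82 ± 0.10 and 0.66 ± 0.09 and in Erg by 0.31 ± 0.08, and fell in Runx1 (−0.38 ± 0.07).

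Among co-repressors of the Groucho family Tle3 rose in Erg and Runx1, with 0.47 and 0.65 in Erg and 0.73 to 0.96 in Runx1. Tle2 rose in Runx1 (1.00 ± 0.19) and Tle4 fell there (−0.68 ± 0.09 and −0.63 ± 0.06). The protease gene Furin, which cuts the receptor on its way to the surface, rose in Runx1 by 1.02 ± 0.10, and so did Dlk2, a relative of the ligands, by 0.95 ± 0.16 and 0.85 ± 0.07. Neurl1a, a ubiquitin ligase that acts on ligands, rose in Erg by 0.43 to 0.73 over 3 probesets, and Dtx1, a regulator of receptor traffic, fell there by 0.69 on the log2 scale and rose in Aire by 0.47 ± 0.09.

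Hes6, a relative of Hes1 that opposes it, rose in Aire (1.20 ± 0.11 and 0.94 ± 0.09), Erg (0.51 ± 0.12), Nrip1 (1.9 ± 0.18) and Pdxk (1.00 ± 0.13). The atypical ligand gene Dner rose in Sim2 by 1.9 ± 0.22 and 1.69 ± 0.21. The calls named here for other pathway genes passed at a limma adjusted p under the threshold. Without the clone block none of them held in Aire, and 0 probesets at all rose in Nrip1 or in Pdxk. The Hes6 calls there were thus lost. In Nrip1 0 probesets passed without clone 1 or without clone 3. The calls in Sim2 depend on how its clones are paired, since the study lists the Sim2 clones in another order before and after induction. With clones 1 and 2 exchanged in the uninduced arrays, 0 of 45100 probesets passed in limma in Sim2 (4597 at an unadjusted p under 0.05), against 412 with the numbers of the labels (6692). The adjusted p was then 0.0848 for both Dner probesets and 0.118 for Nrarp, and without the block 0.0835, 0.0888 and 0.0611. The 13 remaining experiments gave no call among the 50 genes.

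**Figure D4:**
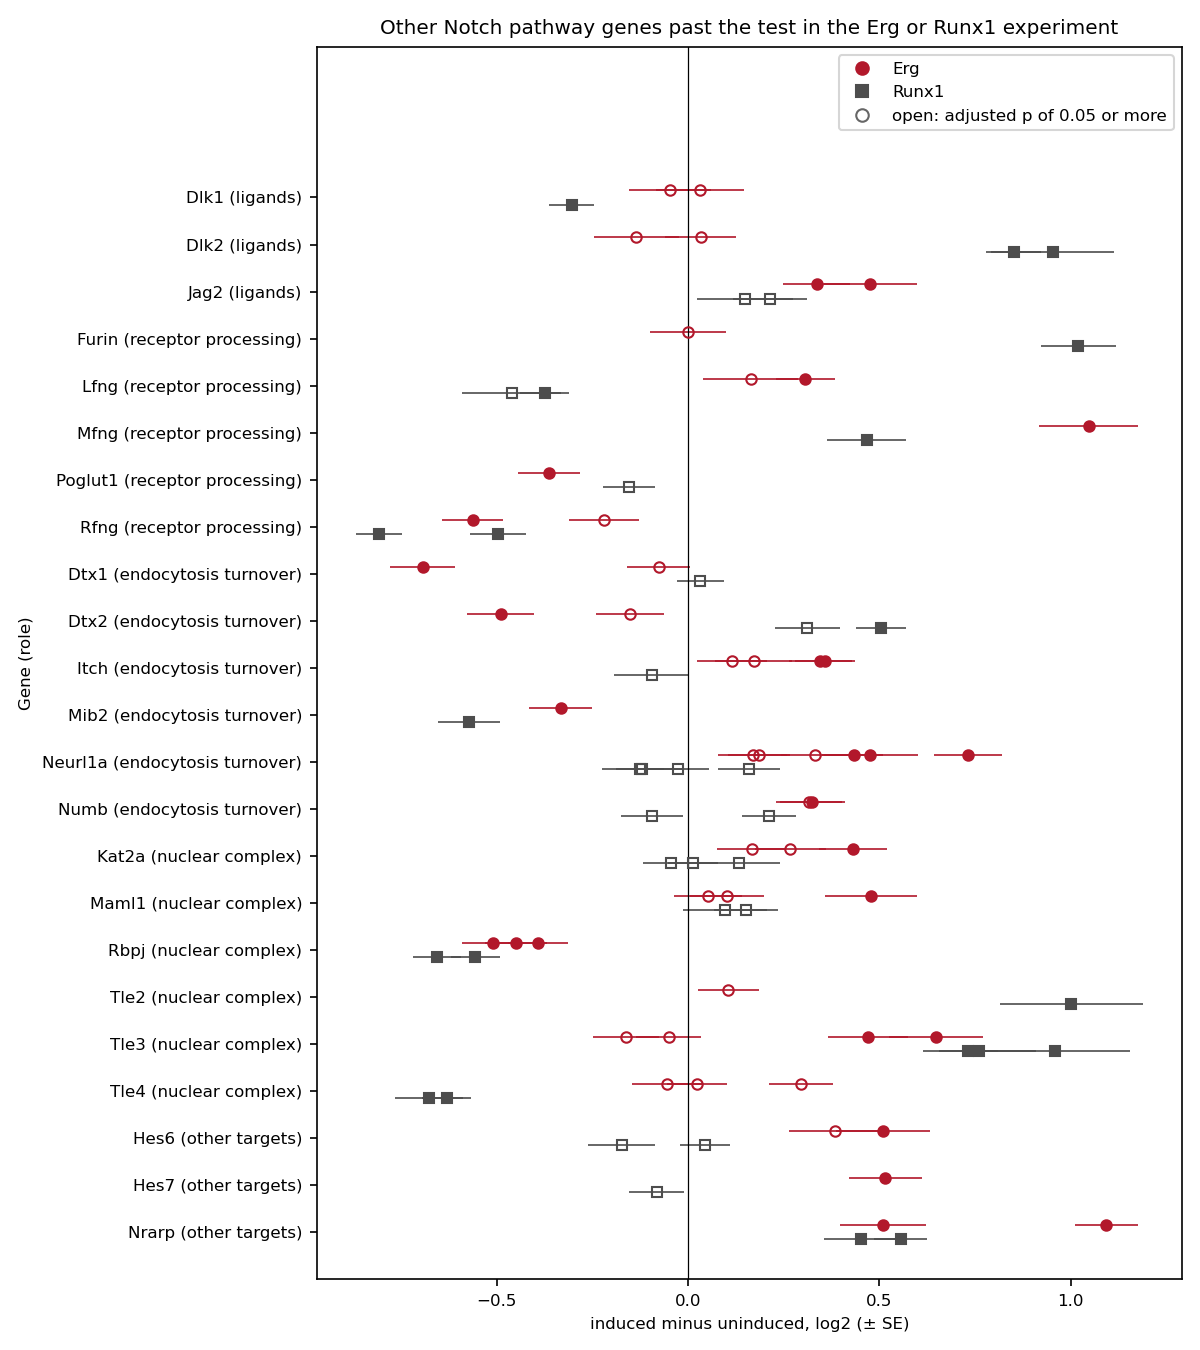
Change (induced minus uninduced, log2, 3 clones, ± moderated SE of limma) in Erg (circles) and Runx1 (squares) of all probesets of the other Notch pathway genes with at least 1 probeset past the test in either, grouped by role. Filled points have an adjusted p under 0.05. Rbpj and Rfng lie left of 0 in both experiments, and Nrarp, Mfng and Tle3 have filled points right of 0 in both.

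By the pattern of its mean change over the 19 experiments, Notch4 1449146_at was most like probesets of Camta1 (Pearson r = 0.933), Zbtb44 (0.895) and Cpsf4l (0.889). Without Erg, where Notch4 changed most, r was 0.837, 0.757 and 0.817. Jag1 1434070_at was most like Prdm1 (r = 0.916), Usp44 (0.911) and Ifitm1 (0.909), and 0.899, 0.897 and 0.895 without Pdxk. These values are descriptions across experiments that share a protocol and an array, and the genes were picked for having the highest r.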

How the data were processed

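Total RNA of induced and uninduced clones was hybridized to Affymetrix Mouse 430_2 arrays (Mouse 430A_2 for Runx1). The authors deposited log2 intensity values, background-corrected, normalized and summarized per probeset by RMA in affy. Versions and the genome build are not given in the sources used here. Arrays were grouped by the gene and state in their labels and paired by clone number, since the series describes each clone as profiled before and after induction. As a check, deviations from the state means correlated above 0.1 in 54 of 60 pairs (median r = 0.376), in all 3 pairs of 15 experiments.

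Induced minus uninduced was fitted with limma 3.58.1 (R 4.3.3), one experiment at a time and with the clone as a block, with Benjamini-Hochberg adjustment over all 45101 probesets (45100 for Sim2, 22690 for Runx1) and a threshold of 0.05. The mean response and each experiment against the other 18 were fitted on 45100 probesets. An ordinary t-test without pairing, called the methods' t-test here, was an alternative. It is not the Bayesian Cyber-t test that the study used. Precision is set by having only 3 arrays per state. In the fit of an experiment with the block, p-values rest on the spread of the change between clones. Those of the mean response rest on the spread between experiments. On simulated data, changes of 1 on the log2 scale were found in 96% to 100% of cases and changes of 0.5 in 7% to 99%, depending on the experiment. The simulated noise was normal, with the moderated spread of limma, and true changes were added in every experiment. Real clones can be more uneven, so these shares do not give the power of the real tests. In Dscr1 a probeset of the induced gene changed by 2.14 at a limma adjusted p of 0.486.

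The genes and lists were chosen with earlier results of these data known. Values per array are given where a probeset passed and for the 3 largest changes among the others. Other pathway genes that passed are named up to the 10 largest changes in an experiment, and the 3 most similar genes are given for the 2 Notch genes of widest range. Further values were chosen after they were seen. Alternatives were no block, 1 fit over all experiments, a second quantile normalization, the probesets of above-median level, trended and robust variances, a threshold of 0.01 and leaving out each clone. After the data were seen, 3 were added: leaving out the Pknox1 experiment in the mean response and among the other experiments, and crossed clone numbers in Sim2. Promoters are from RefSeq (GRCm38.p6), matched by symbol. Figures were drawn with matplotlib 3.10.9 from tables made with pandas 2.3.3 and numpy 2.4.6 under Python 3.11.15.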

Additional observations from a re-analysis of the deposited data

Results flagged for a closer look

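Differences between experiments under the same contrast were found in 17 tests of the change of 1 experiment against the mean of the other 18. For Erg they were −1.82 for Notch4 1449146_at, −0.70 for Jag1 1434070_at, 0.69 for Dll1, 0.53 for Notch1 1418633_at, 0.46 for Notch1 1418634_at and −0.32 for Hey1, all on the log2 scale. For Olig2 they were −0.67 for Jag1 1434070_at, −0.59 for Jag1 1421106_at, −0.39 for Jag1 1421105_at and −0.39 for Hes1. For Pdxk they were 0.51 for Jag1 1434070_at, 0.33 for Jag1 1421105_at and 0.39 for Hey1. For Nrip1 they were −1.02 for Notch4 1449146_at and 0.54 for Notch2 1455556_at, for Gabpa −0.50 for Hey1 and for Sim2 0.57 for Dll1. Without the clone block the difference of Notch4 and that of Notch1 1418633_at in Erg passed, and the other 15 did not.

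Calls of opposite sign, with every clone on the side of its mean, were met for Jag1 1434070_at, where the change in Aire exceeded that in Erg by 0.94 and that in Olig2 by 0.91, and for Hes1, where the change in Olig2 less that in Runx1 was −0.69. These 3 differences between pairs of experiments were not tested directly.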

How the results depend on the processing

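The 18 calls kept their direction under each alternative that tested them. The 5 calls in Runx1 are not in the fit over all Mouse 430_2 experiments, and the 2 of Notch4 there are not among the probesets of above-median level. Without the clone block, 7 of the 18 passed (4 higher, 3 lower), with 0 in Aire, 0 in Olig2 and 2 in Runx1. Over all probesets 0 rose and 5 fell in Aire without it, and 30 and 49 in Olig2. In Erg 1801 rose and 2059 fell without it, and in Runx1 1610 and 1509. Of the differences between experiments 2 of 17 then passed, as did 15 of the 29 increases of other pathway genes, with 0 increases and 0 decreases in Aire. With the methods' t-test 0 passed (0 higher, 0 lower, 0 each in Aire, Erg, Olig2 and Runx1), with 36 of 358 at an unadjusted p under 0.05, against 84 in limma. Over all probesets that t-test also passed 0 in Aire and 0 in Olig2, and in Erg 185 rose and 228 fell. With 1 fit over the 19 Mouse 430_2 experiments 23 passed in place of 13, 11 of them lower in place of 5, with 2 in Aire and 5 in Olig2. A second quantile normalization left 3 in Runx1 and gave 5 in Olig2, the probesets of above-median level 3 and 6, and trended and robust variances gave 17 increases and 7 calls in Olig2. At a threshold of 0.01, 6 remained (3 higher, 3 lower), 1 in Aire, 0 in Olig2 and 1 in Runx1. Of the other pathway genes 9 increases and 7 of 13 decreases remained, with 3 and 3 in Erg and 1 and 0 in Aire. Clone pairs as values gave 5 calls in the mean response in place of 0. Holding the comparison to experiments of the same time gave 11 differences, not all of them among the 17.

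Leaving out 1 clone number in turn gave 10 to 20 calls (7 to 17 higher, 3 lower), with 0 to 4 in Aire, 3 to 6 in Erg, 0 to 1 in Olig2 and 3 to 5 in Runx1. It also gave 6 to 10 differences between experiments, not all of them among the 17. Of the other pathway genes it gave 16 to 36 increases and 9 to 19 decreases, with 1 to 4 and 0 to 2 in Aire, 3 to 11 and 3 to 5 in Erg and 6 to 8 and 4 to 6 in Runx1. Over all probesets of Aire 1283 rose and 709 fell without clone 1, 1288 and 737 without clone 2 and 56 and 54 without clone 3. All clones together gave 1104 and 668. In Olig2 8 and 20 did without clone 1, 113 and 170 without clone 2 and 163 and 267 without clone 3, against 372 and 423. Calls that held without the block and without each clone were 5 of 18: Notch4 1449146_at and Dll1 in Erg and Runx1, and Notch1 1418634_at in Erg. Leaving out the Pknox1 experiment gave 16 differences in place of 17 and 0 calls in the mean response. With crossed clone numbers in Sim2 the calls of that experiment over all probesets went to 0, against 412 with the numbers as given, and those of Dner and Nrarp were lost. The Notch probesets had 0 calls there in both pairings.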
